A study of Mus musculus with 3 samples.

Results

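Prostaglandin genes were followed in the choroid plexus epithelium (CPE), the cell layer that secretes the cerebrospinal fluid into the brain ventricles. The set held 10 genes that make, move, break down or sense prostaglandins: Ptgs1, Ptgs2, Ptgds, Ptges, Ptgis, Slco2a1, Hpgd, Ptger3, Ptger4 and Ptgfr. Every probe of the array that was not a control and carried one of these gene names was taken, which gave 18 of 41174 probes and 10 of 27845 gene names. Among the 10 genes, 4 had 1 probe, 4 had 2 probes and 2 had 3 probes.

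The CPE came from 3 healthy adult female C57BL/6 mice, without any treatment, and was cut by laser from frozen sections through the lateral ventricles. Its RNA was amplified, labelled with the red dye (Cy5) and hybridised to 1 Agilent mouse whole-genome array per mouse. The green channel (Cy3) of all 3 arrays held 1 reference RNA, taken from eyes of C57BL/6 mice, namely from their pigment epithelium behind the retina (RPE) with the choroid. The dyes were not swapped, so a dye bias of a probe and a difference between tissues cannot be told apart. The reference was 1 RNA, so its biological spread is not part of any error given here. Of 10 markers of the CPE, 8 were found on the array by name, all 8 ranked in the top 10% of probes, and 7 of them, such as Ttr, Kl and Clic6, were called higher in the CPE than in the reference. Markers of photoreceptors (7 of 7), of red blood cells (3 of 3) and of neurons (3 of 5) were called lower, and 2 of 5 tested markers of oligodendrocytes were called higher, with summed levels of 5850 to 7404 in the CPE and 3739 to 4076 in the reference.

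Prostaglandins are short-lived lipid signals made from arachidonic acid. Phospholipases free the arachidonic acid, the cyclooxygenases turn it into prostaglandin H, and terminal synthases turn that into prostaglandin D, E, F or prostacyclin. Carriers take the products up for breakdown inside the cell, and G protein-coupled receptors on the cell surface sense them. The choroid plexus is known as a site where prostaglandins are cleared from the cerebrospinal fluid, and lipocalin-type prostaglandin D synthase, the product of Ptgds, is known as one of the abundant proteins of that fluid.

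The promoter was shown for Ptgds, the only member whose probe ranked in the high class and passed the test against the reference, and for the uptake carrier Slco2a1. Both are the 250 bases before the RefSeq transcription start, 5′ to 3′ on the strand of the gene, on build GRCm38.p6. The Ptgds window is chr2:25469750-25469999 on the minus strand and the Slco2a1 window is chr9:103008237-103008486 on the plus strand. Capitals mark the letters TGACTCA of an AP-1 site, bases -35 to -29 from the start of Ptgds, and the letters TATAAA of a TATA box, bases -29 to -24 from the start of Slco2a1.
Ptgds: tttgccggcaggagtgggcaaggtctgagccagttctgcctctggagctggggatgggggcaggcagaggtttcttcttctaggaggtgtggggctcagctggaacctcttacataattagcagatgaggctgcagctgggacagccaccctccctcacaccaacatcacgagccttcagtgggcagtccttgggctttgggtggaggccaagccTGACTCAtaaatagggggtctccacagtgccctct
Slco2a1: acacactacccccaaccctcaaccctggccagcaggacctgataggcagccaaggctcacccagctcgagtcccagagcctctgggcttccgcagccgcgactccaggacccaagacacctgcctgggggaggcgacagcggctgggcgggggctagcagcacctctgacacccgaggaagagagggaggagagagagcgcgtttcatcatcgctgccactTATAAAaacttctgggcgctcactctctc
Of the 10 members, 9 had a promoter in the RefSeq table. Both strands were searched for 6 motifs. TGACTCA was found in 4.46% of all 32851 promoters of this length and in 1 member, and TATAAA in 12.4% and in 1 member. CCAAT was found in 33.8% of all promoters and, among the members, in Ptger4 at bases -75 to -71. TGACGTCA, ACGTCA and CACGTG were found in 1.55%, 6.47% and 6.02% of all promoters and in 0 of the 9 members. ACGTCA lies within TGACGTCA, so these counts overlap. The bases were 58.4% G or C in the Ptgds window and 63.2% in the Slco2a1 window, against a median of 52.4% over all promoters.

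The expression level of a probe was given as its percentile among all probes of the array, after the mean red intensity had been put on the log2 scale and made comparable between arrays. Following the ranking of the study, a probe was called high past the 90th percentile and moderate past the 50th, while probes between the 10th and the 50th were low and the remainder very low. A percentile depends on how well a probe binds its target, so genes cannot be ordered by abundance with it. By this ranking 1 of the 18 member probes was high, 8 were moderate, 5 were low and 4 were very low. The gene with the high probe was Ptgds, 1 of 10 members, where 12.7% of the 27845 gene names had a high probe. In the CPE, 9 member probes from 7 genes were well above background on all 3 arrays, by the flag of the scanner software, and in the reference 14 were. Over all probes of the array these shares were 44.9% and 61.5%.

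**Figure D1:**
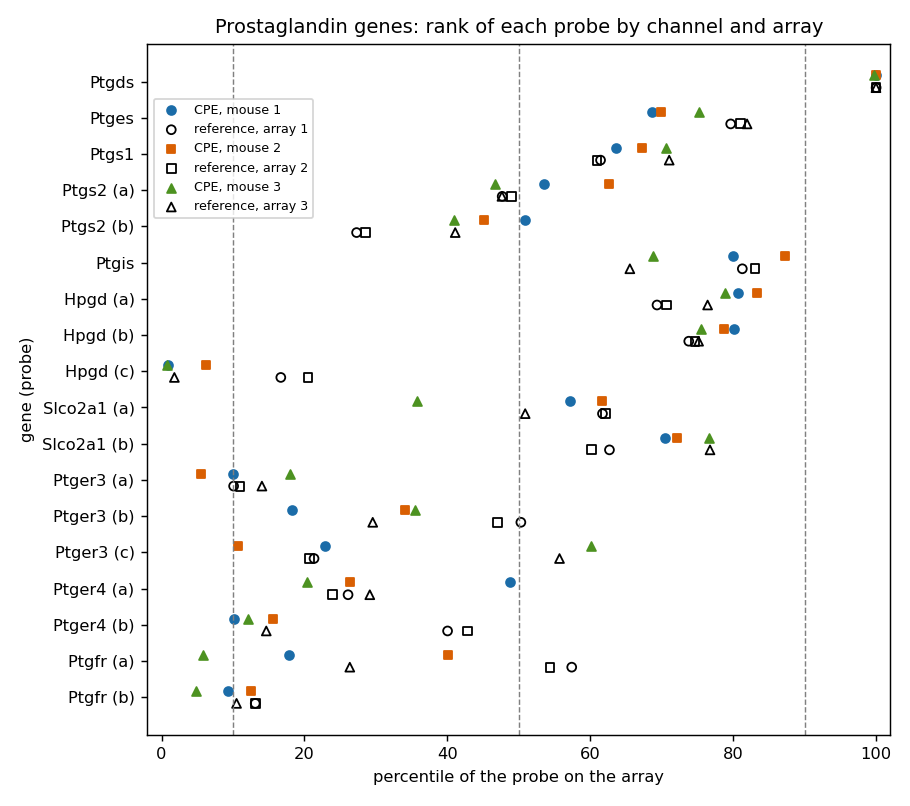
Percentile of each of the 18 probes among all probes of an array (x axis), by gene and probe (y axis). Filled marks are the CPE of the 3 mice, open marks the reference on the same arrays, and dashed lines stand at the 10th, 50th and 90th percentile; Ptgds lies at the right edge in both tissues, enzymes and carriers lie mostly between 50 and 90, and the receptor probes lie mostly below 50.

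The CPE was set against the reference by the log2 ratio of red over green in each mouse, after background correction and normalization of each array with loess. A value of 1 is a 2-fold higher and a value of -1 a 2-fold lower signal in the CPE. Of the 18 probes, 14 were bright enough in at least 1 channel on all arrays to be tested, and these covered all 10 genes. A probe was called at a limma adjusted p under 0.05 over all 25844 tested probes together with a change of at least 2-fold. With this rule 1 of the 14 member probes was called, the Ptgds probe, with a ratio below 0 that rests in part on saturated spots, as described with its values, where 17.3% of all tested probes were called (7.09% higher and 10.2% lower). When arrays were centred on their median in place of loess, the share of higher probes among all calls went from 41.1% to 67.0%. At an adjusted p under 0.05 with any fold, 4 of the 14 member probes passed (Ptgds, Ptges, Ptgfr and 1 probe of Hpgd), against 39.2% of all tested probes.

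The measured differences between the tissues were small for most members. Only 9 member probes were well above background in the CPE on all arrays, so small ratios of the dimmer tested probes do not establish a small difference. The median log2 ratio over the 14 probes was 0.07, and over all tested probes it was -0.04. Without regard to sign, the median was 0.25 for the members and 0.39 for all tested probes. The 95% interval of the ratio lay within 2-fold in both directions for 11 of the 14 member probes (78.6%) and for 64.1% of all tested probes. The spread between mice, as the median SD of the log2 ratio, was 0.27 for the members and 0.26 for all. The ratio had the same sign in all 3 mice for 5 of the 14 probes. With no share over all tested probes beside it, this count cannot be read as a trait of the members.

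**Figure D2:**
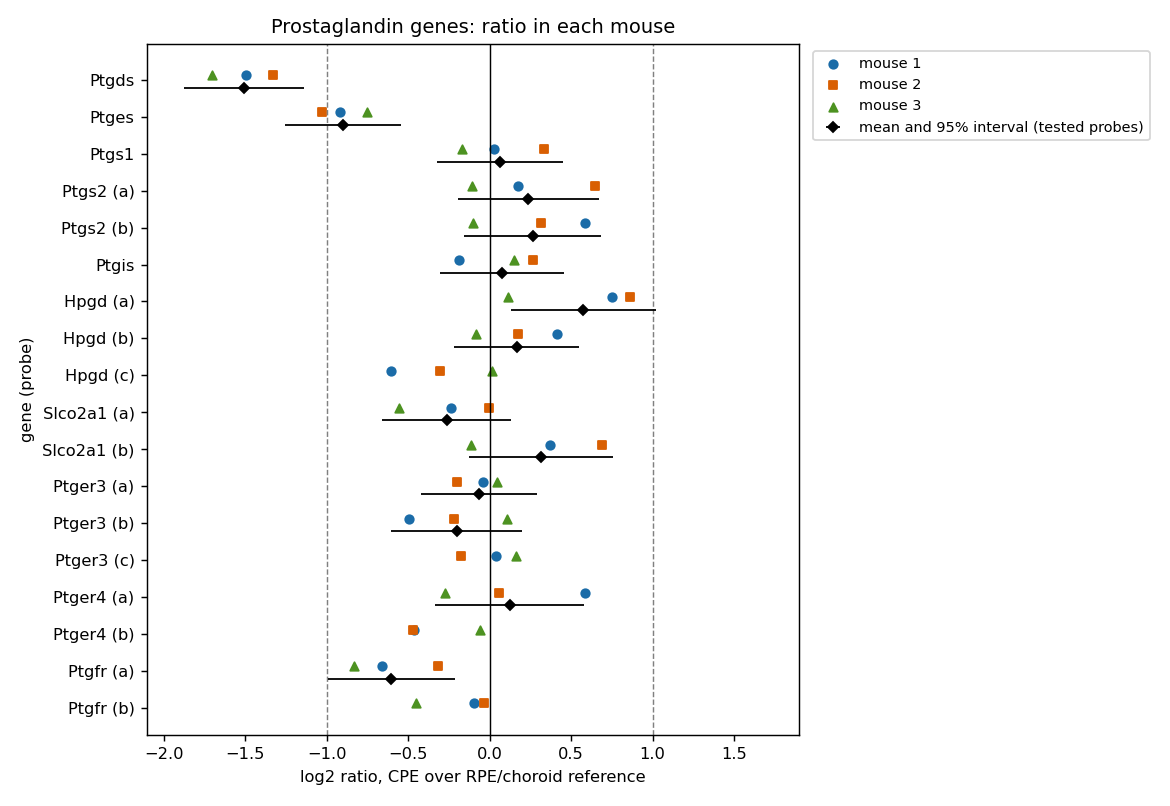
Log2 ratio of CPE over RPE and choroid reference (x axis) for each of the 18 probes (y axis). Coloured marks are the 3 mice, black diamonds with bars are the mean and its 95% interval for the 14 tested probes, and dashed lines stand at a 2-fold change; the interval of Ptgds lies wholly below -1 and those of the other tested probes reach inside the dashed lines.

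The first step belongs to the cyclooxygenases, of which Ptgs1 is the form that many cells hold at rest and Ptgs2 the form that inflammatory signals induce. Both were measured in the CPE and neither passed the test against the reference. The Ptgs1 probe (mm8, chr2:36074133-36074192) stood at percentiles 63.6, 67.2 and 70.6 in mice 1, 2 and 3, a moderate level. Its log2 ratios were 0.03, 0.33 and -0.17, so the mice did not share a direction. The mean was 0.06 ± 0.17 (SE, n = 3; limma, adjusted p = 0.79), and its 95% interval ran from -0.32 to 0.45. Here and below, the SE of a mean ratio is the moderated SE of limma, which also draws on the variance of all tested probes.

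Ptgs2 had a pair of probes on chromosome 1, 328 bases apart. The downstream probe (a; mm8, chr1:151869832-151869891) was well above background on all arrays and stood at percentiles 53.5, 62.6 and 46.7. The upstream probe (b; mm8, chr1:151869504-151869563) was well above background in the CPE on 2 of 3 arrays and stood at percentiles 50.8, 45.1 and 40.9. The levels thus straddled the border between moderate and low. The log2 ratios were 0.18, 0.64 and -0.11 for probe a and 0.58, 0.32 and -0.10 for probe b. Mouse 3 was the lowest with both probes and the other two were above 0. The means were 0.24 ± 0.19 (adjusted p = 0.35) and 0.26 ± 0.18 (adjusted p = 0.28). The difference between the probes averaged 0.03 ± 0.37 (SD, n = 3), less than its spread over the mice.

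Ptgds is the first of the terminal synthases, and its product makes prostaglandin D and also carries small lipids. Its probe (mm8, chr2:25289331-25289862) lay at the top of the array in both tissues. It stood at percentiles 99.998, 99.93 and 99.69 in the 3 mice and at 99.99 in the mean of the reference. By scanned intensity it ranked 38.5, 28 and 127 from the top of the CPE channel on arrays 1, 2 and 3. The CPE spot of array 1 was saturated, so the percentile of mouse 1 is not a measured rank. The scanned intensities were 65393, 62277 and 29506 in the CPE and 65197, 65197 and 53137 in the reference. The log2 ratios after loess were -1.49, -1.33 and -1.70. The mean was -1.51 ± 0.16 (SE, n = 3; 95% interval -1.88 to -1.14; limma, adjusted p = 0.000348). These ratios do not measure the size of the difference on all arrays, since the probe was saturated on 2 of them.

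The scanner was saturated for this probe in the CPE on array 1 and in the reference on arrays 1 and 2, so only array 3 measured both channels within range, and on array 2 the reference has only a lower bound. Before loess the log2 ratios were 0.0046, -0.066 and -0.85, and loess shifted them by -1.499, -1.26 and -0.85. The ratios computed by the scanner software were -1.14, -0.81 and -1.69. Before normalization array 3 thus gave a lower intensity in the CPE and array 2 only a bound near 0, and on array 1, where both channels were saturated, the sign came from the normalization. With the arrays centred on their median in place of loess, the mean was -0.47 (adjusted p = 0.44) and the call was lost. A limma test against a 2-fold change, in place of one against 0, gave an adjusted p of 0.10.

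**Figure D3:**
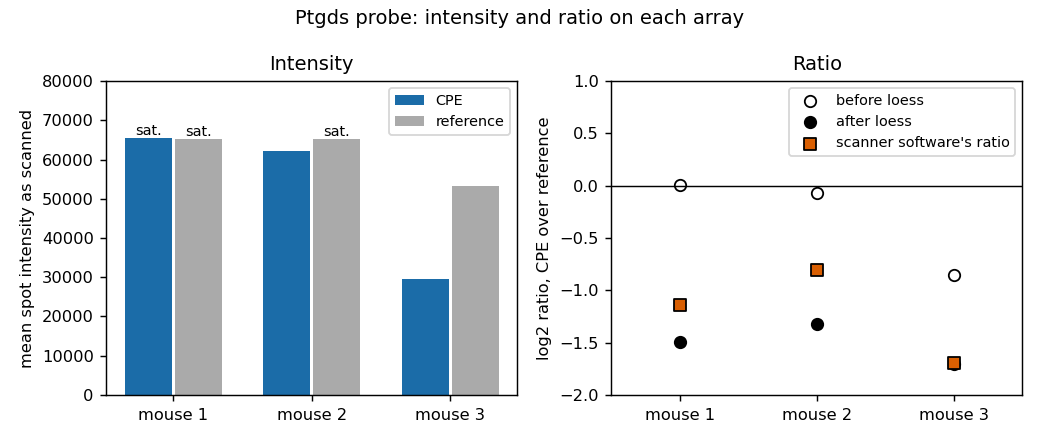
Ptgds probe on the 3 arrays. Left, mean scanned intensity of the CPE (blue bars) and of the reference (grey bars), with "sat." over saturated channels; right, log2 ratio of CPE over reference before loess (open circles), after loess (filled circles) and as given by the scanner software (squares). The bars nearly match for mice 1 and 2, near the top of the range of the scanner, and differ for mouse 3, while all filled circles lie between -1.70 and -1.33.

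Ptgds is also expressed by leptomeninges and by the RPE, so the markers of these cells are given beside it. Of 8 leptomeningeal and stromal markers, 6 were called lower in the CPE and 1, Igf2, higher. Col1a1 was counted as lower by its brightest probe (-1.19), while another of its probes gave 1.12. The summed level of the 8 markers ran from 56256 to 73010 in the CPE and from 120401 to 140102 in the reference. Igf2, whose probe was saturated in the CPE on all 3 arrays, made up most of the CPE sum, and without it the sums were 17557 to 20385 and 116181 to 135653. Of these, Dcn, Lum, Col1a1, Col1a2 and Igf2 ranked high in the CPE, and none of the 8 was at background on all arrays there. Of 11 markers of RPE and melanocytes, 10 were called lower, and their summed level ran from 6016 to 8447 in the CPE and from 249433 to 262165 in the reference, with Tyr not well above background in the CPE on any array. The part of these cells in the Ptgds values was not tested. The epithelium was cut out by laser to leave the vascular stroma behind. In such RNA from many cells at once, fewer cells of a type and less RNA per cell cannot be told apart.

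Ptges, the inducible synthase of prostaglandin E, was moderate in the CPE. Its probe (mm8, chr2:30714327-30714386) stood at percentiles 68.6, 69.9 and 75.2, with 81.6 for the mean of the reference. The log2 ratios were -0.92, -1.03 and -0.75. All mice were below the reference, and the normalized levels of the channels did not overlap, where the 3 reference values are repeats of 1 RNA. The mean was -0.90 ± 0.15 (SE, n = 3; 95% interval -1.26 to -0.54; limma, adjusted p = 0.00326), a change of 1.87-fold, which missed the 2-fold limit. The ratio of the scanner software was -1.01 and passed both limits, while median centring gave -0.53 (adjusted p = 0.21).

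Ptgis, the prostacyclin synthase, is best known from endothelium. Its probe (mm8, chr2:166898010-166898069) stood at percentiles 79.9, 87.2 and 68.7 in the CPE. The log2 ratios were -0.19, 0.27 and 0.15, with a mean of 0.075 ± 0.16 (SE, n = 3; limma, adjusted p = 0.75). The 95% interval ran from -0.31 to 0.46. The mice did not share a direction. Endothelial markers were measured in both tissues: 0 of 7 were called in the same limma test, and all 7 were well above background in the CPE on all arrays. At an adjusted p under 0.05 in that test, with any fold, 4 passed. Of these, Pecam1 (0.95), Cdh5 (0.94) and Esam (0.72) had mean log2 ratios above 0 and Cldn5 (-0.54) below. The summed level of the 7 was 8536 to 13712 in the CPE and 10187 to 12832 in the reference. Kdr and Flt1, the brightest of the 7, weigh most in it. The part of endothelial cells in the Ptgis values was not tested.

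Uptake and breakdown of prostaglandins rest on Slco2a1, the prostaglandin transporter of the cell membrane, and Hpgd, the hydroxyprostaglandin dehydrogenase that inactivates prostaglandins in the cytosol. Both were moderate in the CPE by their brightest probes. The upstream Slco2a1 probe (b; mm8, chr9:102944869-102944928) stood at percentiles 70.4, 72.1 and 76.7. The downstream probe (a; mm8, chr9:102945854-102945913), 985 bases away, stood at 57.2, 61.6 and 35.8. The log2 ratios were 0.37, 0.69 and -0.11 for the upstream probe and -0.24, -0.003 and -0.55 for the downstream one. The probes gave opposite mean directions, 0.32 ± 0.19 (SE, n = 3; adjusted p = 0.23) and -0.26 ± 0.17 (adjusted p = 0.26), and neither passed. The upstream probe was above the downstream one in 3 of 3 mice, by 0.61, 0.69 and 0.44, or 0.58 ± 0.13 (SD, n = 3).

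Hpgd was the member with the highest mean ratio. Its downstream probe (a; mm8, chr8:59212744-59212803) stood at percentiles 80.6, 83.3 and 78.8 in the CPE and at 73.7 in the mean of the reference. The log2 ratios were 0.75, 0.86 and 0.11, above 0 in all mice. The normalized levels of the channels did not overlap, where the 3 reference values are again repeats of 1 RNA. The mean was 0.57 ± 0.19 (SE, n = 3; 95% interval 0.13 to 1.02; limma, adjusted p = 0.0462), a 1.49-fold higher signal that missed the 2-fold limit. With median centring it was 1.02 and was called (adjusted p = 0.0423). The second probe (b; mm8, chr8:59212385-59212444), 359 bases upstream, stood at percentiles 80.1, 78.7 and 75.5, with log2 ratios of 0.41, 0.17 and -0.09. Its mean was 0.17 ± 0.17 (SE, n = 3; adjusted p = 0.46), and it lay below probe a in all 3 mice, by 0.41 ± 0.25 (SD, n = 3). The third probe (c; mm8, chr8:59206249-59206308) carries the accession of a cDNA clone and was not well above background in the CPE on any array, at percentiles of 0.93, 6.3 and 0.74.

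The 3 receptors among the members were hard to measure in the CPE. Of their 7 probes, those of Ptger3 and Ptger4, the EP receptors coupled to lower and to higher cyclic AMP, and of Ptgfr, the receptor of prostaglandin F, none was well above background in the CPE on all arrays. Ptger3 had 3 probes on chromosome 3. The tested probe a (mm8, chr3:157579837-157579896) stood at percentiles 9.9, 5.5 and 18.03 and probe b (mm8, chr3:157503128-157540306) at 18.2, 34.1 and 35.4. Their mean log2 ratios were -0.06 ± 0.15 (SE, n = 3; adjusted p = 0.77) and -0.20 ± 0.17 (adjusted p = 0.39). The start of probe b lies 76709 bases upstream of the start of probe a, and the ratios of these probes differed by -0.14 ± 0.28 (SD, n = 3), less than the spread. Probe c (mm8, chr3:157542430-157542489) was not tested and stood at 22.8, 10.6 and 60.1.

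Ptger4 had 1 tested probe (a; mm8, chr15:5181634-5181693), well above background in the CPE on 2 arrays. It stood at percentiles 48.7, 26.3 and 20.4, a low level. Its log2 ratios were 0.59, 0.06 and -0.27, so mouse 1 lay highest and mouse 3 below 0. The mean was 0.12 ± 0.20 (SE, n = 3; limma, adjusted p = 0.66), and it was -0.063 with median centring and -0.11 without mouse 1. The other probe (b; mm8, chr15:5153890-5153949) was well above background on no array in either channel.

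Ptgfr was the one of these 3 receptors with a probe at an adjusted p under 0.05. Its probe a (mm8, chr3:151738745-151738804) was well above background in the reference on all 3 arrays and in the CPE on none. It stood at percentiles 17.8, 40.1 and 5.8 in the CPE, and at 57.4, 54.4 and 26.3 in the reference on the same arrays. The log2 ratios were -0.66, -0.32 and -0.83, below 0 in all mice. By the mean ratio the signal was at least 1.52-fold higher in the reference (limma, adjusted p = 0.0240). This size is a lower bound, since the CPE signal was not well above background on any array. The 95% interval of the measured log2 ratio ran from -0.99 to -0.21, and the normalized levels of the channels overlapped. For the same reason this interval sets no upper limit to the difference. The measured mean was -0.60 ± 0.17 (SE, n = 3), short of the 2-fold limit, while the ratio of the scanner software was -2.097 and was called. Probe b (mm8, chr3:151735032-151735091) was not tested.

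Array 3 differed from the other arrays in its background. The scanner software fits a background surface to each array, and its median was 81.2, 82.6 and 363 in the CPE channel and 113, 112 and 236 in the reference channel, whereas the median local background of the CPE was 57, 56 and 58. Mouse 3 had the lowest ratio of the 3 mice in 10 of the 14 tested member probes (71.4%), among them both Ptgs2 probes and the tested Hpgd and Slco2a1 probes, and in 48.6% of all tested probes. In the CPE channel 58.5%, 46.0% and 85.6% of all probes were well above background on arrays 1, 2 and 3. The part of the background in the low ratios of mouse 3 was not tested.

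The rest of the pathway was read from 54 other genes in 5 lists, each by its brightest tested probe. Of these, 44 were tested: 1 was called higher in the CPE, 7 lower and 36 were not called, and over all genes 18.9% were called (7.91% higher and 11% lower). The median log2 ratio was -0.03. In the CPE 7 of the 54 genes ranked high, where 12.7% of all gene names had a high probe. The 7 were Pla2g5, Mgll, Ptges3, Ltc4s, Abcc4, Slc22a8 and Pla2g12a.

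The gene called higher was Ltc4s, the synthase of leukotriene C, which branches from arachidonic acid through the lipoxygenase route. It stood at percentile 96.4 in the CPE and 64.1 in the reference. Its log2 ratios were 3.85, 3.66 and 3.34, high in all 3 mice. The mean was 3.62 ± 0.17 (SE, n = 3; limma, adjusted p = 1.08e-05), a 12.3-fold higher signal. Of the 11 tested genes of the leukotriene and lipoxygenase list, 2 were called lower. These were Alox5ap, which presents arachidonic acid to the lipoxygenase, at -1.33 ± 0.16 (adjusted p = 0.000637), and Lta4h, the hydrolase that makes leukotriene B, at -1.08 ± 0.17 (adjusted p = 0.00218). Both lost the call with median centring (-0.92 and -0.59), and Lta4h also without mouse 2 (-0.93). Alox5ap is also carried by macrophages, of whose 7 markers 4 were called lower in the CPE, with a summed level of 7919 to 8769 against 57971 to 64384 in the reference; their part was not tested.

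The substrate list held 18 phospholipase and lipase genes, of which 12 were tested and 2 were called, both lower in the CPE. Mgll, the monoacylglycerol lipase that frees arachidonic acid in brain, had log2 ratios of -2.25, -2.70 and -1.91 in the mice. Its mean was -2.29 ± 0.19 (SE, n = 3; adjusted p = 0.000114), although it ranked at percentile 97.6 in the CPE, since it stood at 99.7 in the reference. Its other tested probe gave -3.29. Pla2g7, the plasma-type platelet-activating factor hydrolase, was lower at -1.53 ± 0.26 (adjusted p = 0.00335), with -2.01, -1.88 and -0.69 in the mice, and lost the call with median centring (-0.91). Pla2g5, a secreted phospholipase at percentile 98.8, fell just short of the limit at -0.98 ± 0.15. Pla2g12a stood at 0.88 ± 0.18 by its brightest probe, short of the limit, and at 1.06, which was called, by the other.

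Of the 8 further synthases and reductases, all were tested and 1 was called. Akr1b3, an aldose reductase that can also make prostaglandin F, was lower in the CPE in 3 of 3 mice (-1.23, -1.07 and -1.22), with a mean of -1.17 ± 0.15 (SE, n = 3; limma, adjusted p = 0.000881) and -0.52 with median centring, where the call was lost. A second tested probe of Akr1b3 gave -1.25. Close relatives of this gene family may share signal on its probes. The other synthases of prostaglandin E, Ptges2 and Ptges3, stood at percentiles 89.8 and 97.2 with mean log2 ratios of 0.08 ± 0.15 and 0.38 ± 0.15 by their brightest probes, which were not called. A second tested Ptges3 probe lay on the other side of 0 in all 3 mice (-0.20, -1.21 and -0.17), with a mean of -0.53 (adjusted p = 0.11). Hpgds, the synthase of prostaglandin D in blood cells, stood at 53.2 with a ratio of -0.54 ± 0.18, which was not called either.

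Of 9 further genes of transport and inactivation, 8 were tested and 2 were called, both lower in the CPE. Slco4a1, an organic anion carrier, had log2 ratios of -3.23, -2.70 and -2.999 and a mean of -2.98 ± 0.17 (SE, n = 3; adjusted p = 2.22e-05). Its level in the CPE was low, at percentile 46.5, and well above background there on 2 of 3 arrays. Over the alternatives its mean ratio ran from -4.44 to -2.59. Ptgr1, a reductase that acts on prostaglandins after Hpgd, was lower at -1.90 ± 0.16 (adjusted p = 0.000130). Both kept the call in every alternative that was run. The efflux pump Abcc4 and the organic anion carrier Slc22a8, which both handle prostaglandins, ranked at percentiles 95.8 and 92.7 by their brightest probes. The mean log2 ratios of these probes were 0.76 ± 0.15 and 0.92 ± 0.15, above 0 in 3 of 3 mice and short of the 2-fold limit. Other tested probes gave lower values. The second Abcc4 probe stood at 0.19, with 2 of 3 mice below 0, and the other Slc22a8 probes stood at 0.45 and, with 2 of 3 mice below 0, at -0.28.

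Of 7 further receptors and partners, 5 were tested and 0 were called in the limma test, with 3 at an unadjusted p under 0.05. At an adjusted p under 0.05, Ptger1, the EP receptor coupled to calcium, stood at 0.93 ± 0.22 (adjusted p = 0.0133) and Tbxa2r, the thromboxane receptor, at 0.61 ± 0.17 (adjusted p = 0.0220). Both were above 0 in all 3 mice and short of 2-fold. They stood at percentiles 65.4 and 72.7 in the CPE. By their brightest probes 4 of the 7 genes were well above background in the CPE on all arrays. Neither probe of the prostaglandin D receptor gene Ptgdr was tested: one was well above background in the CPE on 1 array and the other on none.

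**Figure D4:**
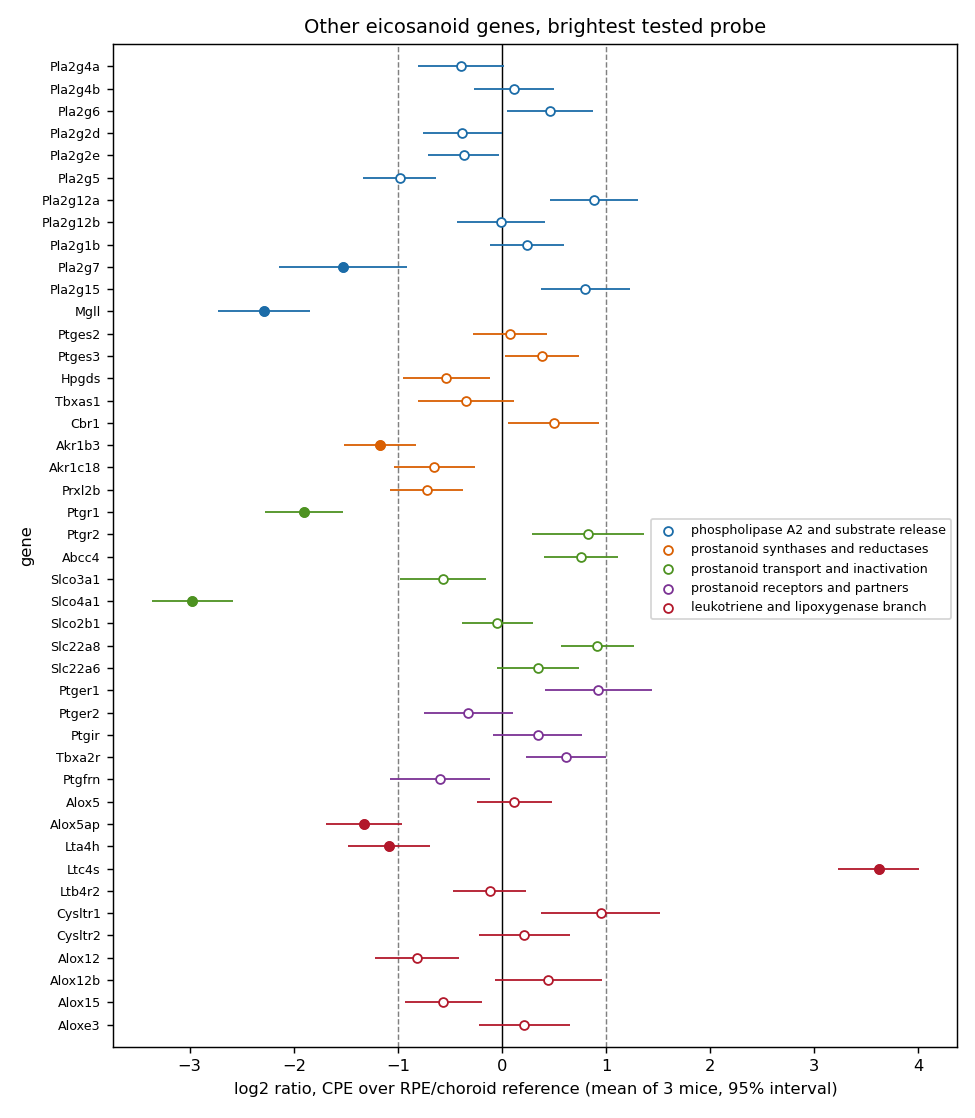
Mean log2 ratio of CPE over RPE and choroid reference with its 95% interval (x axis) for the 44 tested genes of the 5 further lists (y axis, coloured by list). Filled circles are called genes and open circles are not called, with dashed lines at a 2-fold change; Ltc4s lies alone on the right and the 7 genes called lower lie beyond the left line.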

How the data were processed

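RNA of the CPE of 3 mice (red) and a common RPE and choroid RNA (green) was measured on 3 two-colour arrays. The scanner tables deposited by the authors come from Agilent Feature Extraction 9.5.3.1, per the submitters' processing notes, and give the intensity of each spot, its background and flags, and, per the file headers, a log10 ratio of red over green. A deposited table of log2 levels of the CPE, normalized by the authors between arrays, served as an alternative. The fold changes and tests were computed here with R 4.3.3 and limma 3.58.1. Intensities were corrected with normexp (offset 50) and normalized with loess within arrays, without control spots and outliers, and averaged per probe. The mean log2 ratio was set against 0 with the moderated test, two-sided, with Benjamini-Hochberg adjustment over the 25844 probes well above background in at least 1 channel on all 3 arrays. Percentiles used the mean red signal without background correction, after Aquantile. The brightest tested probe stood for a gene outside the members. All probes of the members were described, as were the called genes of the other lists and a few more needed to describe a class. Members and lists were chosen with earlier results of these data known. Accessions of 23374 probes (56.8%) matched RefSeq, 13 of the 18 member probes among them. The fit was tested on simulated data with an even dye shift and no saturation, which therefore does not cover saturated spots such as those of Ptgds. The number of arrays limits the precision, and coordinates are mm8 as in the scanner tables, without exons or introns.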

Additional observations from a re-analysis of the deposited data

How the results depend on the processing

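Alternatives were median centring, no background correction, the ratios of the scanner software, Aquantile after loess, other filters on dim probes, array weights, limma's treat against 2-fold, leaving out each mouse and, chosen after seeing the data, the background surface of the scanner software. With the scanner ratios the called probes numbered 6755 in place of 4462, the called member probes and member genes 3 each (Ptgds, Ptges and Ptgfr) in place of 1, and the called genes of the other lists 19 in place of 8. With treat these counts were 1413, 0, 0 and 4. Without a mouse they ran from 4029 to 5311 probes, stayed at 1 member probe and 1 member gene, and ran from 8 to 12 genes of the other lists. With median centring 1 member probe was called as well, but it was Hpgd and not Ptgds, and the median log2 ratio of all tested probes went from -0.04 to 0.09. Pla2g7, Akr1b3, Alox5ap and Lta4h also lost their calls with treat. The sign turned for Ptgs1 with the background surface (-0.049) and without mouse 2, where leaving out a mouse gave -0.071 to 0.18. It turned for Ptgis without mouse 2 (range -0.020 to 0.21), for the first Ptger3 probe without mouse 2 (range -0.12 to 0.0040), and for Ptger4 with median centring (-0.063) and without mouse 1 (range -0.11 to 0.32). None of these 4 probes was called under any alternative, and the cause was not tested. The percentile of Ptgds ran from 99.74 to 99.98 over the rankings, which a probe at the ceiling of the scanner could hardly leave. Percentiles of moderate members fell when dim probes were left unranked, as with Ptges (38.1), since fewer probes stood below them. Each ratio paired the CPE with the reference on the same array, and no pairing between groups of mice was possible because the series has 1 group. Dim probes, among the members mainly those of the receptors, were limited by the signal over background.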
